A study of Caenorhabditis elegans with 2 samples.

Results

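Translation factor genes encode the proteins that start and carry forward protein synthesis on the ribosome. In Caenorhabditis elegans they were taken as the protein-coding genes of build WBcel235 (ce11) whose names begin with eif, eef, iff, ife or ifg followed by a digit, which gave 39 of 19973 genes on the nuclear chromosomes. Chromatin immunoprecipitation with sequencing (ChIP-seq) mapped NHR-80, an HNF4-like nuclear receptor known for its control of fatty acid desaturase genes, in whole hermaphrodite young adults, 64 hours after a synchronised start from starved L1 larvae. There was 1 group with 2 biological replicates and no second genotype or treatment. All animals were of strain OP460, genotype unc-119(tm4063) III; wgIs460, and expressed NHR-80 with GFP and FLAG at the C terminus. The labels do not name the promoter of the transgene, and chromatin of all tissues was mixed, so the cells in which a site was bound cannot be told apart. The sample description names an antibody against GFP, and another label field names nhr-80.

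On ce11 the authors listed 30000 pooled peaks, 30000 in replicate 1 and 29712 in replicate 2, called against a control. A further list held the 7038 pooled peaks that passed the authors' threshold on the irreproducible discovery rate (IDR), which keeps peaks whose ranks repeat between replicates. The authors label the pooled list as peaks and background given as input for this IDR step. Its entries below the threshold may therefore be background. A summit is the highest point of a peak. A gene was counted when a thresholded summit lay in its promoter window, which opens 1000 bp before the annotated 5' end and closes 200 bp after it. The signal is the authors' value for each peak, on the peak caller's own scale in each list, and the read depth is unknown.

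Translation begins when initiation factors bring the small ribosomal subunit, the initiator tRNA and a capped mRNA together. Elongation factors then deliver each aminoacyl-tRNA and move the ribosome along the message. Protein synthesis is a major cost of the adult worm, whose intestine makes the yolk proteins for the oocytes, and lower activity of several initiation factors is known to lengthen worm lifespan.

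The bases around selected summits are given, from the strongest member promoter to a weak one. Not shown are eef-1B.1 (576), eef-2 (256) and eif-3.C (242), among others. Each run covers 50 bp on either side of the summit, less any annotated UTR, and reads 5' to 3' on the strand of the gene, from the RefSeq genome of WBcel235. Capitals mark any of the 4 sequences searched, on either strand, none of which contains another. TGATAA is a form of the site read by GATA factors such as the intestinal ELT-2, AGTCCA is part of the element bound by HNF4 in vertebrates, CACGTG is the E-box of many basic helix-loop-helix factors, and GAGAGA is a short repeat. The run of vha-6, an intestinal vacuolar ATPase gene outside the translation factors, is given because it holds TGATAA. For iff-1, pooled list only means that the summit is in the pooled list and no thresholded summit lay in the window.
iff-2 (chrII:8561398-8561498, minus strand, signal 1071): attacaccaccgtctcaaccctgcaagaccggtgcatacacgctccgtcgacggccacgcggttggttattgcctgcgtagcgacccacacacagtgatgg
eef-1G (chrV:10965660-10965718, plus strand, signal 712): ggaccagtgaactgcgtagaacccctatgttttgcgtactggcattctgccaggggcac
eef-1A.2 (chrX:7823234-7823334, plus strand, signal 661): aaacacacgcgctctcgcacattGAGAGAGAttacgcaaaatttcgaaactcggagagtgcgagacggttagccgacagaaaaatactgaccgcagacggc
eef-1A.1 (chrIII:6972018-6972118, minus strand, signal 344): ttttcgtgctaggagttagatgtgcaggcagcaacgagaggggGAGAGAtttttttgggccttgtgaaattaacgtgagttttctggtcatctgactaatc
ife-2 (chrX:382844-382944, minus strand, signal 174): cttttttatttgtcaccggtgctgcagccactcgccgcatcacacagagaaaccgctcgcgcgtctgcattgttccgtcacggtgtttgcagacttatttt
eif-3.B (chrII:14795120-14795220, plus strand, signal 167): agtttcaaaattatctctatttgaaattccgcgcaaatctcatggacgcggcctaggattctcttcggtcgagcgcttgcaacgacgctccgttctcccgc
eef-1B.2 (chrIV:15037171-15037271, plus strand, signal 106): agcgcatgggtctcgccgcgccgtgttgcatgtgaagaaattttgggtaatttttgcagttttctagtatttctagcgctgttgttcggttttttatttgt
iff-1 (chrIII:9747279-9747379, minus strand, pooled list only, signal 68.7): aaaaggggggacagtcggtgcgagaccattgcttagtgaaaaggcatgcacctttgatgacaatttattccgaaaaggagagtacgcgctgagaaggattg
vha-6 (chrII:11438559-11438659, minus strand, signal 627): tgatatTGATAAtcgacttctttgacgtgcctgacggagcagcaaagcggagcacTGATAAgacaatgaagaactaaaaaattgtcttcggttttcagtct

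A thresholded NHR-80 summit lay in the promoter window of 15 of the 39 translation factor genes. This was 38.5% (95% Wilson interval 24.9 to 54.1, counting error only), and the share over all protein-coding genes was 18.6%. The counts differed by step of translation. All 6 elongation factor genes and iff-2, of the eIF5A pair, carried a summit, against 8 of the 31 initiation factor and related genes. The initiation share was above the share over all genes, but 31 genes are too few to set it apart from that share. Among the 31, 0 of the 10 genes for eIF2, eIF2B, eIF2A and eIF2D carried one. These 10 are too few to set a count of 0 apart from the share over all genes. No test was made of these shares, because the genes are few and some share promoters with neighbours. The strongest summit of the 15 genes had a median signal of 174, from 93.4 to 1071, and the median over all 3712 genes with such a summit was 202. Presence was therefore more frequent than over all genes, while the typical signal of those present was not higher. Above the median signal of the thresholded list (195), 7 of the 39 members had a summit, where the share over all genes was 9.77%. These 7 were eef-1A.1, eef-1A.2, eef-1B.1, eef-1G, eef-2, iff-2 and eif-3.C.

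**Figure D1:**
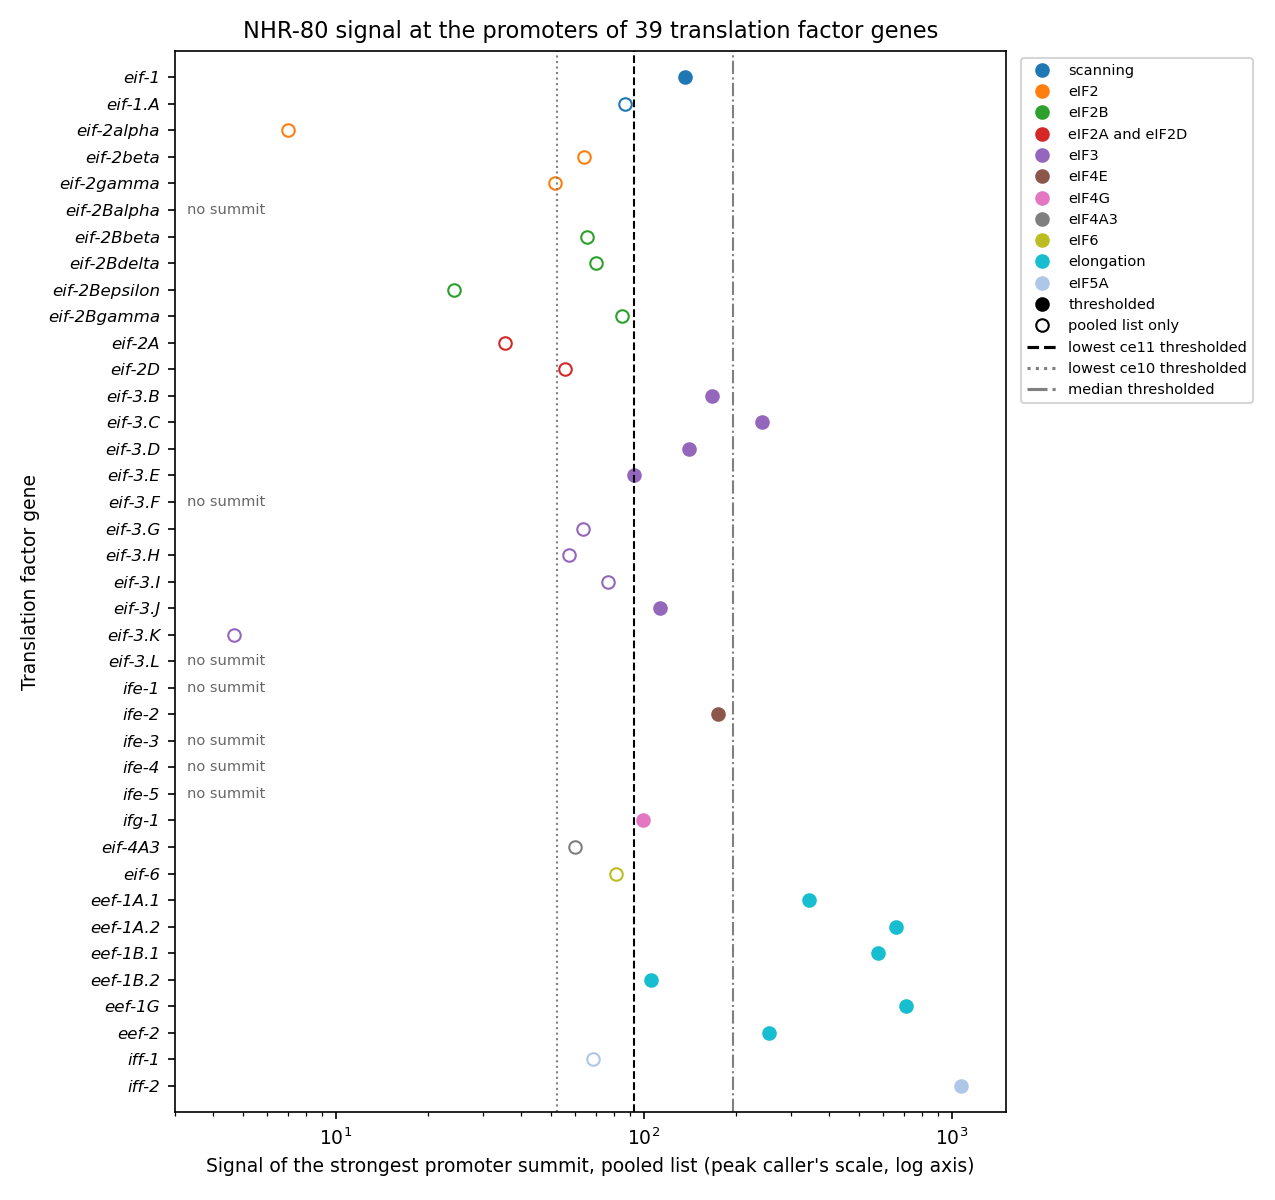
Signal of the strongest promoter summit of each of the 39 translation factor genes in the pooled list (log axis), grouped by role. Filled points have a thresholded summit. Open points (pooled list only) have a pooled summit and no thresholded one, whether or not a replicate list also held it. Vertical lines mark the lowest thresholded signal on ce11 (93.0) and on ce10 (52.3) and the ce11 median (195). Of the 7 genes above 195, 5 are elongation factors and the others are iff-2 and eif-3.C, and the 9 placed genes of eIF2, eIF2B, eIF2A and eIF2D all lie below 93.0.

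The 6 elongation factor genes all carried thresholded sites, with pooled signals from 106 to 712 and a median of 460. The gene of the gamma subunit of eEF1, eef-1G (V: 10965719 to 10967922), had its summit 9 bp upstream of the start, in intergenic sequence, with a signal of 712 that ranked 180 in the thresholded list. Its values were 378 in replicate 1 and 336 in replicate 2, ranks 193 and 167 of those lists. Both replicates thus placed it among their strongest peaks. The divergent neighbour ctf-4 also had the summit in its window, 171 bp upstream of its own start.

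The paired genes eef-1A.1 and eef-1A.2 encode eEF1A, the GTPase that brings aminoacyl-tRNA to the ribosome. For eef-1A.2 (X: 7823654 to 7825769) the summit lay 370 bp upstream with a signal of 661, and the replicates gave 331 and 328. For eef-1A.1 (III: 6970026 to 6971712, minus strand) it lay 356 bp upstream with a signal of 344, and the replicates gave 185 and 161. In both replicates the site of eef-1A.2 was the stronger of the pair, and the peaks of both genes had summits at nearly the same distance from the start. The eef-1A.1 summit fell on the annotated microRNA cel-mir-5549 and was nearer to the start of rfc-4, 185 bp upstream of that gene, a replication factor C subunit, than to eef-1A.1. GAGAGA lay at both summits, as the capitals above show.

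The genes eef-1B.1 and eef-1B.2 encode subunits of the factor that exchanges GDP for GTP on eEF1A, and their promoters differed. At eef-1B.1 (III: 7972382 to 7973386, minus strand) the summit was 2 bp downstream of the start, in the 5' UTR, with 576 in the pooled list, 299 in replicate 1 and 280 in replicate 2. It was also 333 bp upstream of aco-2, which encodes aconitase. A second thresholded summit 745 bp upstream of eef-1B.1, in an intron of aco-2, had 135, with 101 in replicate 1 and 38.1 in replicate 2. At eef-1B.2 (IV: 15037331 to 15039551) the summit 110 bp upstream had 106, with 55.3 and 43.5. In both replicates this was the lowest among the strongest summits of the 6 elongation factor genes. In eef-2, the gene of the translocase (I: 9163531 to 9166952), the summit was 7 bp downstream of the start, in the 5' UTR, with 256 in the pooled list. The replicates gave 139 and 119, and the divergent clsp-1 had the same summit 272 bp upstream.

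Of the factor eIF5A, which helps the ribosome past difficult peptide bonds, the worm has the genes iff-1 and iff-2. The iff-2 promoter (II: 8559375 to 8561367, minus strand) had the strongest summit of all members, 81 bp upstream, with 1071, rank 24 of the 7038 thresholded peaks. Replicate 1 gave 562 (rank 28) and replicate 2 gave 510 (rank 23). The summit also lay in the window of F54C9.14, 854 bp upstream of that gene's start. The iff-1 gene (III: 9745862 to 9747193, minus strand), known for its part in germ cell proliferation, had no thresholded summit. Its strongest pooled summit, 136 bp upstream, had 68.7, and the replicates gave 27.5 and 38.9. The nearest thresholded summit was 4182 bp upstream of iff-1, in the 5' UTR of T05G5.5.

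A smaller share of initiation factor genes than of elongation factor genes carried a site, and the strongest initiation site had 242. The lowest elongation site, at eef-1B.2 (106), was weaker than several initiation sites. The factors eIF1 and eIF1A open the small subunit for scanning of the mRNA. At eif-1 (II: 4990831 to 4993580, minus strand) the thresholded summit lay 365 bp upstream with 136, and the replicates gave 64.9 and 73.4. This summit was only 53 bp upstream of vps-24, a gene of the ESCRT-III membrane-remodelling complex, and also lay in the window of pigb-1. At eif-1.A a pooled summit, likewise 365 bp upstream, had 86.8, with 44.2 and 38.0 in the replicates. It was the strongest member without a thresholded summit, and the list ended at 93.0.

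The trimer eIF2 delivers the initiator tRNA, and eIF2B recycles it by nucleotide exchange, which is the step that stress kinases block through phosphorylation of the alpha subunit. No thresholded summit lay in the windows of eif-2alpha, eif-2beta, eif-2gamma or the 5 eIF2B genes, nor at eif-2A or eif-2D, which encode alternative factors for the initiator tRNA. Signal below the threshold was listed for 9 of these 10 genes, from 7.02 at eif-2alpha to 85.0 at eif-2Bgamma, with a median of 55.6. In the pooled list eif-2Bdelta had 69.8, eif-2Bbeta 65.3, eif-2beta 64.2, eif-2D 55.6, eif-2gamma 51.4, eif-2A 35.6 and eif-2Bepsilon 24.3. The remaining gene, eif-2Balpha, had a single summit of 9.85 in replicate 1. Thresholded summits were present inside 2 of the genes, in an intron of eif-2beta 730 bp downstream of its start (93.9) and in an intron of eif-2Bdelta 2622 bp downstream (115). The first was in the promoter window of another annotated transcript start of eif-2beta. Just upstream of eif-2alpha, the mitochondrial prohibitin gene phb-1 ends 132 bp from the eif-2alpha start, and its own promoter had a thresholded summit (103).

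The scaffold eIF3 holds the small subunit ready for the mRNA. Of its 11 named subunit genes, 5 had a thresholded summit, where the share over all genes was 18.6%. The strongest was eif-3.C (I: 9976426 to 9979662, minus strand), 248 bp upstream, with 242 in the pooled list, 135 in replicate 1 and 109 in replicate 2. The next were eif-3.B (II: 14795404 to 14798235), 234 bp upstream, with 167, 86.2 and 78.1, and eif-3.D (III: 8969635 to 8971578, minus strand), 255 bp upstream, with 140, 65.1 and 72.2. The eif-3.D summit was nearer to R08D7.4, 59 bp upstream of that gene's start. At eif-3.J (I: 13435489 to 13437963) a summit 948 bp upstream, in the 3' UTR of slc-25A46, had 113, 64.4 and 51.2. The summit of eif-3.E (I: 10640465 to 10642281, minus strand), 218 bp upstream, had 93.4 and ranked 7020 of 7038, just inside the list. It also lay in the window of B0511.17, 530 bp upstream of that gene's start. Of these 5 summits, 4 were between 218 and 255 bp upstream of the annotated starts. Without a thresholded summit, eif-3.I had 76.7 in the pooled list, eif-3.G 63.6, eif-3.H 57.2 and eif-3.K 4.69. Both replicates also listed summits for eif-3.I, eif-3.G and eif-3.H, and replicate 1 listed one for eif-3.K. No summit of any list lay in the windows of eif-3.F and eif-3.L.

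The cap-binding protein eIF4E has 5 genes, and ife-2 alone had a thresholded summit. This 1 of 5 is near the share over all genes (18.6%). The gene ife-2 (X: 381385 to 382709, minus strand) acts mainly in somatic tissue, and its loss lengthens lifespan. Its summit, 185 bp upstream, had 174 in the pooled list, 80.4 in replicate 1 and 92.9 in replicate 2. For ife-1, ife-3, ife-4 and ife-5 the pooled list had no summit in the window. Replicate 2 alone listed ife-4 (32.1), ife-3 (7.76) and ife-1 (6.84), and no list held one for ife-5. A thresholded summit with 284 lay 1011 bp upstream of ife-3 in the window of B0348.10, and the one nearest to ife-1 was intergenic, 1388 bp downstream of its start (159). The gene of the scaffold eIF4G, ifg-1 (II: 8217222 to 8222396), had a summit 615 bp upstream with 99.2, 42.6 in replicate 1 and 57.2 in replicate 2. That summit was 9 bp downstream of the start of the divergent M110.3, in its 5' UTR. The genes eif-4A3, for a helicase of the exon junction complex, and eif-6, for a factor that keeps the ribosomal subunits apart, had no thresholded summit. In the pooled list eif-4A3 had 59.8, with 31.8 in replicate 1 and 27.4 in replicate 2. For eif-6 these values were 81.3, 47.7 and 32.3.

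**Figure D2:**
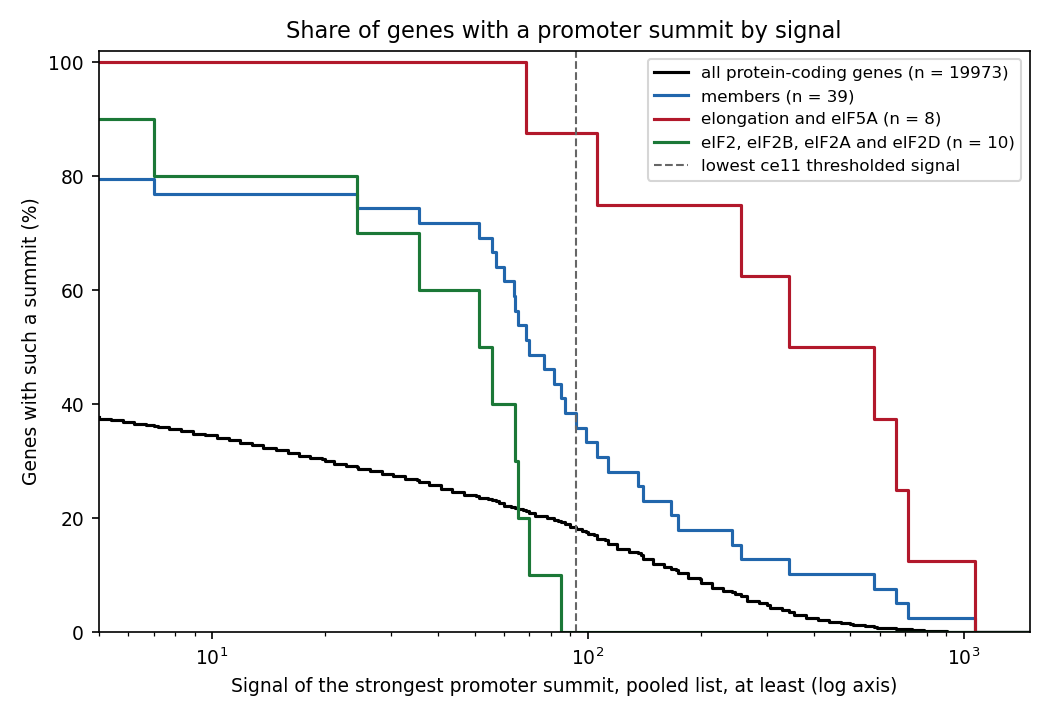
Share of genes (%) whose strongest promoter summit in the pooled list reached at least a given signal (log axis), for all 19973 protein-coding genes, the 39 members, the 8 elongation and eIF5A genes and the 10 eIF2, eIF2B, eIF2A and eIF2D genes. At a signal of at least 50 the shares were 24.2%, 71.8%, 100% and 60%; at 200 they were 9.41%, 17.9%, 75% and 0%.

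Below the threshold, summits at translation factor genes were frequent. The pooled list had a summit in the window of 32 of the 39 members, and of 38.1% of all protein-coding genes. Among genes with any pooled summit, 46.9% of members and 48.8% of all genes had a thresholded one. The members thus stood apart from all genes in how often any entry was listed, and not in how often a listed entry passed the threshold. The pooled list is labelled as holding background too, so its entries alone do not show binding. The 17 members with a pooled summit and no thresholded one had pooled signals from 4.69 to 86.8, with a median of 63.6. The authors' thresholded list on the older build ce10 held 9962 peaks and reached down to a signal of 52.3. With that limit on the ce11 pooled list, an alternative chosen after seeing the data, 27 members had a promoter summit, where the share over all genes was 23.8%. All 8 elongation and eIF5A genes and 5 of the 10 genes for eIF2, eIF2B, eIF2A and eIF2D were among them. The count of 0 for these 10 genes also ended at other settings. With all annotated transcript starts eif-2beta was counted, with a window widened to 2000 bp before and 500 bp after the start eif-2alpha, and with the strongest peaks of replicate 2 alone eif-2beta and eif-2Bgamma.

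The summits lay close to the gene starts, and many were in the windows of several genes. The strongest thresholded summits of the 15 members had a median position of 234 bp upstream, and 13 of the 15 lay within 400 bp of the start. Positions ran from 948 bp upstream at eif-3.J to 7 bp downstream at eef-2. The window itself bounds these positions. With a window from 500 bp upstream, 13 of the 15 members still had a summit, as did 2935 of the 3712 genes overall. For 9 of the 15 members another protein-coding gene had the same summit in its window, and the share of such summits over all genes is not given here. For 4 of these 9 members, eef-1A.1, eif-1, eif-3.D and ifg-1, the start of the neighbour was the nearer one. When each summit counted for the nearest start alone, 11 members had one, where the share over all genes was 15.2%. With any base of a peak in the window 17 members were counted, where the share over all genes was 20.1%, and with all annotated transcript starts 16, where it was 20.2%. Many worm genes are transcribed in operons or trans-spliced, so an annotated 5' end need not be where transcription begins. A protein-coding gene on the same strand ended within 500 bp upstream of 7 members, and 2 of these 7 (eif-3.C and eef-1B.2) had a thresholded summit. The other 32 members had 13. The shares over all genes with and without such an upstream gene are not given here, and 7 members are too few for a comparison.

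**Figure D3:**
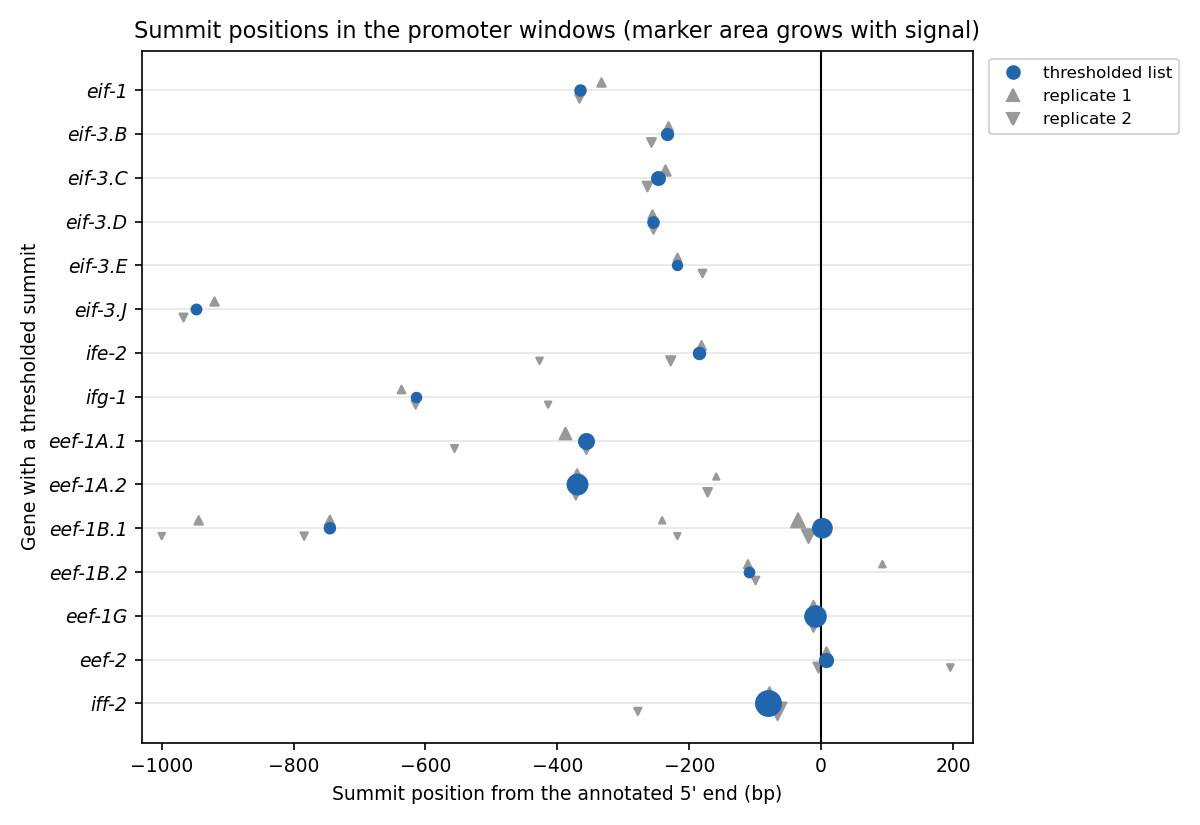
Position of summits from the annotated 5' end (bp, negative is upstream) in the promoter windows of the 15 members with a thresholded summit. Blue circles are thresholded summits, grey triangles the summits of replicate 1 (pointing up) and replicate 2 (pointing down), and the marker area grows with the signal on each list's scale. At eef-2, eef-1G and eef-1B.1 the strongest summit lies within 9 bp of the start.

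The replicates placed these peaks at the same sites. Since the authors thresholded on these same replicate lists, this overlap is not independent of how members were counted. Each of the 16 thresholded member summits was in a peak that overlapped a peak of both replicates by at least 1 bp. The strongest overlapping summit differed from the thresholded summit by at most 37 bp in replicate 1 and 43 bp in replicate 2. The ratio of replicate 1 to replicate 2 signal at these 16 peaks ran from 0.744 at ifg-1 to 2.64 at the upstream peak of eef-1B.1, with a median of 1.10. Over the 6998 nuclear thresholded peaks found in both lists the median ratio was 1.16, and 5% of peaks were below 0.825 and 5% above 1.62. The upstream eef-1B.1 peak and the ifg-1 peak were outside that range, and the 14 others were inside it. Across the 16 peaks the replicates had a Spearman rho of 0.868, a description of sites that come from the same libraries. From the 7038 strongest peaks of replicate 1 alone 13 members had a promoter summit, where the share over all genes was 18.1%, and from those of replicate 2 alone 15 members had one, where it was 18.4%. Among the 7038 strongest peaks of each replicate, 12 members had a promoter summit in both, where the share over all genes was 16.5%. The 3 thresholded members outside these 12 were eif-3.E, ifg-1 and eef-1B.2, which are also the 3 weakest.

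**Figure D4:**
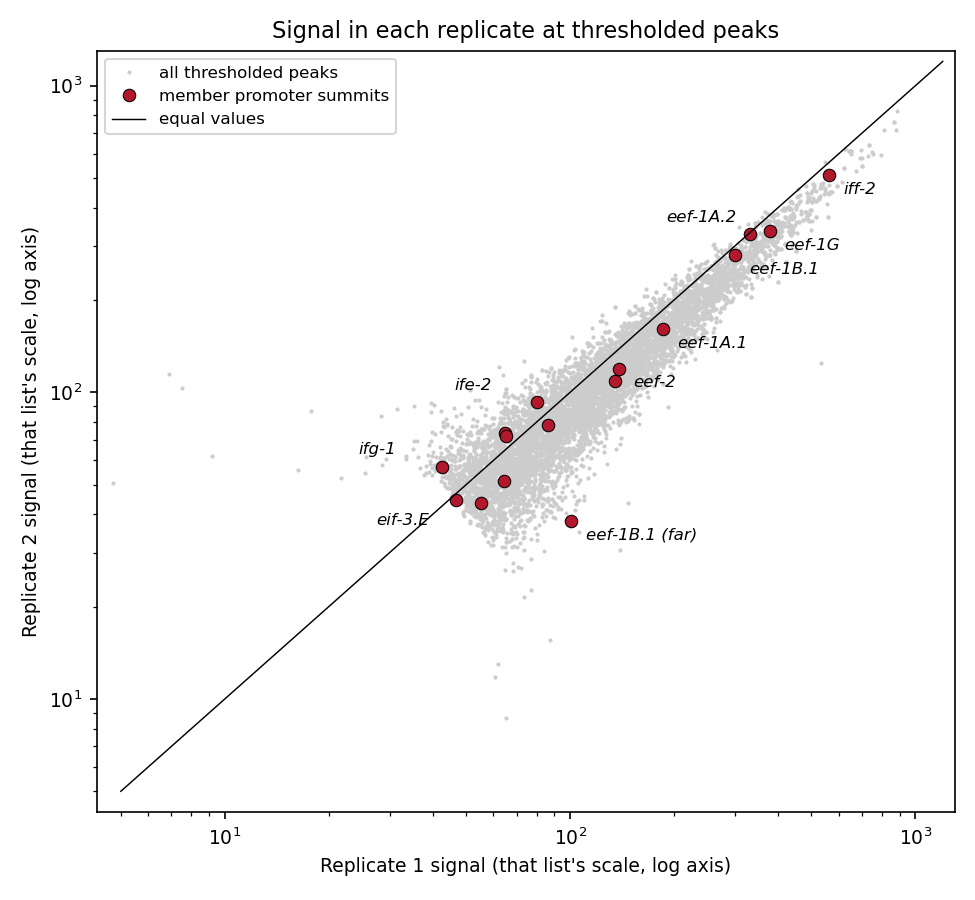
Signal of the strongest overlapping peak in replicate 1 (x) and replicate 2 (y), both log axes on each list's own scale, for all nuclear thresholded peaks (grey) and the 16 member promoter summits (red); the line marks equal values. The members follow the cloud, with iff-2 near its upper end (562 and 510) and the upstream eef-1B.1 peak (far) off it (101 and 38.1).

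The base sequence at the member summits differed from that of other promoter summits. Within 50 bp of the summit, on either strand, TGATAA was found at 0 of the 16 thresholded member summits. A rough upper limit for that share, taken as 3 counts in 16, is 18.8%. Of all 3349 thresholded promoter summits, 35.9% held TGATAA, and 10.7% held it in flanks from 200 to 250 bp on both sides, where 2 of the 16 member summits did. Within 100 bp, 2 of the 16 held it (eif-1 and eif-3.E) and 48.2% of all promoter summits. Members were also richer in G and C, with a median of 48.0% in the 101 bases around the summit, from 38.6% to 59.4%, against 40.6% over all promoter summits. Among the 802 promoter summits with at least the GC content of the median member, 5.24% held TGATAA, and among the 2004 within the range of the members 23.5% did. The share of TGATAA thus moves with base composition, and its part in the absence at members was not tested. Of 17 members with a pooled summit and no thresholded one, 1 held TGATAA at its strongest pooled summit.

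AGTCCA and CACGTG are rare at promoter summits, so 16 summits cannot show whether members differ in them. They were found at 0 of the 16 member summits, and at 1.73% and 3.85% of all promoter summits. GAGAGA was at 3 of 16 (18.8%), at eef-1A.1, eef-1A.2 and the upstream summit of eef-1B.1, and at 19.2% of all promoter summits. Within 100 bp, GAGAGA was at 3 of 16 member summits and 29.6% of all promoter summits. There AGTCCA was at 1 of 16 and 3.49%, and CACGTG at 0 of 16 and 7.02%. A match describes the letters and is not a bound site.

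Other genes of translation, named outside the rule, also carried summits. Of 35 matched genes, 17 had a thresholded promoter summit (48.6%, where the share over all genes was 18.6%), with signals from 106 to 659 and a median of 207, against 202 over all genes with one. Among the initiation helpers, the poly(A)-binding protein genes pab-2 (659) and pab-1 (109) and drr-2, of an eIF4H-like protein that acts in lifespan (403), had one. The eIF4A helicase gene inf-1 did not (34.7 in the pooled list). The translational repressor gene ifet-1 had 603, but its summit was nearer to rps-1, and that of the GTPase gene rheb-1 (556) was nearer to spk-1. The termination factor gene erfa-3 had 247, and the ribosome-associated ABC protein genes abcf-2 and abcf-3 had 244 and 170, the first nearer to ant-1.1. Of the signalling genes that act on translation, the eIF2 kinase gene pek-1 had 207, the eIF4E kinase gene mnk-1 294, the S6 kinase gene rsks-1 115 and the stress factor gene atf-4 297. Of the 18 genes without a thresholded summit, 12 had a pooled one, from 10.0 to 88.9 with a median of 35.1, and the eEF2 kinase gene efk-1 was the highest of them. These included the eIF2 kinase gene gcn-2 (19.7) and gcn-1, whose product acts with it (35.5), and the TOR pathway genes let-363 (10.0), daf-15 (86.9) and raga-1 (72.0). Mitochondrial factors tufm-1 (112), tufm-2 (111) and gfm-1 (117) had weak summits, the last 2 nearer to another gene. Weak summits also lay at sqd-1 (142) and ncl-1 (106), a repressor of nucleolar size. None of the 17 thresholded summits of these other translation genes held TGATAA within 50 bp, and their median GC content was 50.5%. The rough upper limit for that share, 3 counts in 17, is 17.6%.

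For comparison within the same lists, 6 of 7 intestine marker genes had a thresholded promoter summit, where the share over all genes was 18.6%, with a median signal of 579, and 5 of these 6 summits held TGATAA. Of 7 germline markers, cgh-1 alone had one (841), without TGATAA, a share of 14.3% that is near the share over all genes. On chromosome X, 2 of 3 members had a thresholded summit. The autosomes held 4 of 12 on I, 4 of 12 on II, 3 of 6 on III, 1 of 2 on IV and 1 of 4 on V, where the share over all genes of a chromosome ran from 16.3% on V to 22.8% on X.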

How the data were processed

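ChIP-seq peak lists of 2 biological replicates were used. Per the submitters' notes deposited with the samples, the thresholded list was derived from both replicate lists and the pooled list. Neither caller, aligner, versions nor the limit on IDR is given by the files or labels read here. The signal values and −log10 q values were used as the authors deposited them; the latter share a ceiling in the thresholded list and ranked nothing. Depth is unknown, so no value carries an interval from depth, and 2 replicates limit precision. Coordinates are ce11, 1-based; all peaks lay within the WBcel235 chromosomes. Genes came from Ensembl release 115. Of the ce10 lists only the lowest thresholded signal was used.

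Summits were assigned to windows of protein-coding genes with Python 3.11.15 and the packages matplotlib 3.10.9, numpy 2.4.6, scipy 1.17.1 and pandas 2.3.3. The assignment was tested on simulated data: all 121 summits planted inside windows among 200 were recovered over 19973 genes. No significance test was made. Every member is named, with genes sharing its summit and other translation genes with a summit; further neighbours of members, inf-1, efk-1, gcn-1, gcn-2, let-363, daf-15, raga-1 and cgh-1 were named after their values were seen. Alternatives changed the window, the signal limit, the replicate, the assignment to genes, the overlap and the motif distance. Of 42 other translation genes, 35 names matched. The members and lists were chosen with earlier results of these data known.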

Additional observations from a re-analysis of the deposited data

How the results depend on the processing

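The count of 15 members was 13 with a window from 500 bp upstream and 18 with one from 2000 bp upstream to 500 bp downstream, where the shares over all genes were 14.7% and 24.2%. It was 11 with the nearest start alone (15.2% of all genes). With any base of the peak in the window it was 17 (20.1%), and with all annotated transcript starts 16 (20.2%). Leaving out either replicate gave 13 to 15 members, with 18.1% and 18.4% of all genes; the gene sets were not identical, since replicate 2 alone added eif-2Bgamma and eif-2beta and lost eef-1B.2 and eif-3.E. Larger moves came from the signal limit by construction. Above the median signal there were 7 members (9.77% of all genes). Down to the lowest ce10 signal there were 27 (23.8%), and with all pooled peaks 32 (38.1%). Of the 16 member summits, 16 overlapped both replicates by at least 50% of the shorter peak. With the strongest peaks of each replicate alone, 12 overlapped both by at least 1 bp. TGATAA rose from 0 to 2 of 16 within 100 bp, where more bases were searched. No paired analysis was possible because there was 1 group and no test. Whole-animal chromatin, 2 replicates and unknown depth limit all values.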
